A study of Rattus norvegicus with 10 samples.

Results

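The genes described here are 10 transcription factors that mark neurons of the hypothalamus: *Isl1*, *Tbx3*, *Nkx2-1*, *Sim1*, *Otp*, *Nr5a1*, *Six3*, *Six6*, *Hmx2* and *Hmx3*. They were taken by gene symbol from the deposited table of 12828 genes, in which 8 of the 10 were found. The levels of *Six6* and *Hmx2* were not analysed here. RNA was sequenced from the arcuate nucleus (ARC), the nutrient-sensing nucleus at the base of the hypothalamus, of Wistar rat dams taken upon parturition. The dams were killed after a daytime fast. Of these dams, 5 had received a 5X-FA diet (folic acid at 5 times the recommended amount) and 5 a 5X-MTHF diet (the reduced form, methyltetrahydrofolic acid, at the equimolar amount) in pregnancy. All dams were first-time mothers on the same AIN-93G base diet, and the ARC was cut by hand from a frozen coronal slice with the third ventricle as the guide, so the pieces can hold cells of nearby nuclei. The study asked whether the form of folate changes hypothalamic expression.

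That comparison was not made for these genes. The 10 columns of values per library are headed by plain numbers that match no sample label, so no value could be given to a dam or a diet, and the columns with the outcome of the authors' own comparison were not used. What could be described is the average log2 CPM (CPM, the read count of a gene scaled to library size, on a log2 scale) that the authors give for each gene over all libraries together. It is a single value per gene with no replicate error, and the depth of the libraries is unknown from it. It is also a share of reads, not divided by transcript length, so that the values below do not rank the genes by number of transcripts. In bulk tissue, fewer cells of a type and less RNA per cell cannot be told apart.

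Identity factors of this kind bind DNA and hold a neuron to its type. In the hypothalamus some of them are set up early, when the neural tube is divided into territories, and several stay on in the adult nucleus. *Nkx2-1*, a homeodomain factor, is needed to form the ventral hypothalamus. *Isl1*, a LIM-homeodomain factor, and *Tbx3*, a T-box factor, act in neurons that make the arcuate peptides. *Otp*, a homeodomain factor, and *Sim1*, a bHLH-PAS factor that works with *Arnt2*, are needed for the oxytocin, vasopressin and releasing-hormone neurons of the paraventricular nucleus. *Nr5a1*, a nuclear receptor also known as SF-1, marks the ventromedial nucleus. *Six3* and *Six6* are paralogous homeodomain factors of the rostral forebrain and eye field, and *Hmx2* and *Hmx3* are a neighbouring pair of homeodomain genes known for growth hormone-releasing hormone neurons and the inner ear.

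All 8 genes had low to moderate average read shares. None reached the median of the table, an average log2 CPM of 4.94 (30.7 CPM), 4 lay between the lower quartile of 3.65 and the median, and 4 lay below the lower quartile. Their own median was an average log2 CPM of 3.65, and their values spanned 2.94 log2 units. Added together, the 8 genes came to 92.9 CPM. No gene was at the floor of the table, an average log2 CPM of -2.07.

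Among the factors of the ventral and arcuate territory, *Nkx2-1* had an average log2 CPM of 4.03 (16.3 CPM), above 31.7% of all genes in the table. *Isl1* had nearly the same read share, an average log2 CPM of 3.999 (16.0 CPM), above 31.1% of genes. *Tbx3* was lower in reads, with an average log2 CPM of 2.45 (5.47 CPM), above 10.2% of genes. *Hmx3* had the lowest value of the 8, an average log2 CPM of 1.60 (3.03 CPM), above 4.79% of genes. Its genomic span, 1.965 kb, was the shortest of the 8, and read shares are not corrected for transcript length. A link between span and read share was not tested.

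Of the paraventricular factors, *Sim1* had the highest value of the 8 genes, an average log2 CPM of 4.54 (23.2 CPM), above 41.4% of genes. *Otp* had an average log2 CPM of 3.66 (12.7 CPM), above 25.1% of genes. Both were therefore read in this ARC dissection, and so were the peptide genes of the same neurons. *Oxt* (oxytocin), *Avp* (vasopressin) and *Trh* (thyrotropin-releasing hormone) had average log2 CPM values of 8.33, 7.96 and 5.96, while *Crh* (corticotropin-releasing hormone) had 2.76. Whether these reads came from the paraventricular nucleus or from other neurons that carry the same genes was not tested.

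*Nr5a1*, the ventromedial factor, had an average log2 CPM of 1.88 (3.69 CPM), above 6.06% of genes. *Fezf1* and *Adcyap1*, listed here as genes of the same nucleus, had average log2 CPM values of 4.01 and 6.04, though *Adcyap1* (the peptide PACAP) is also made in many other neurons. *Six3*, the rostral factor, had an average log2 CPM of 3.64 (12.5 CPM), above 24.8% of genes. With *Otp* at 3.66, it stood next to the lower quartile of the table.

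**Figure D1:**
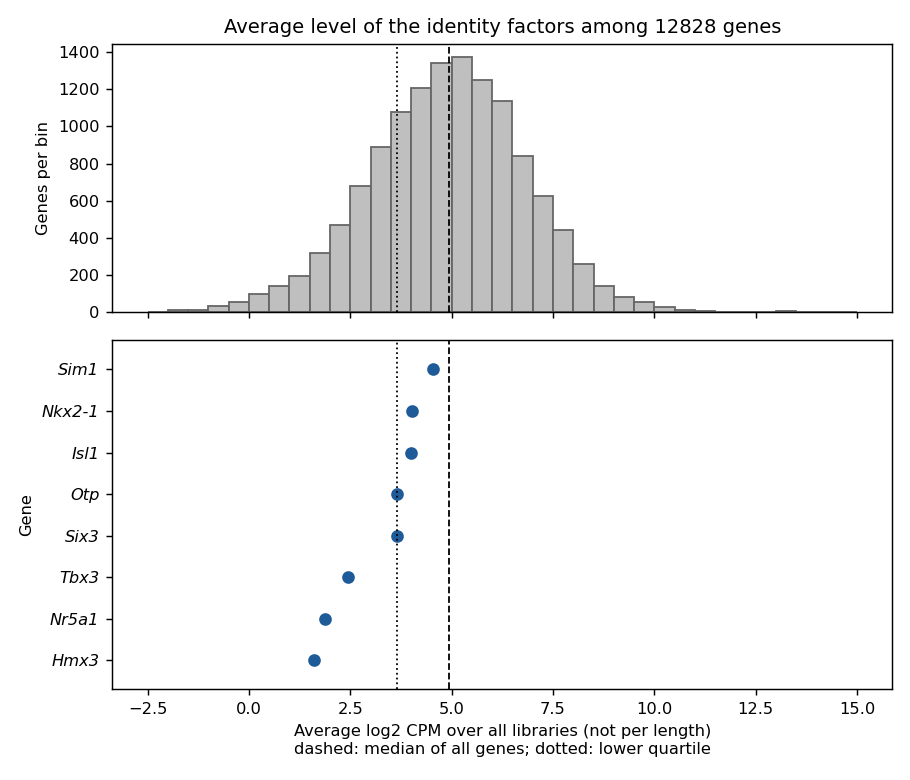
The upper panel counts the 12828 genes of the table by average log2 CPM over all libraries in bins along the x axis, and the lower panel places the 8 identity factors, 1 point each, on the same axis; the dashed line is the median of all genes (4.94) and the dotted line the lower quartile (3.65). All 8 points lie left of the dashed line, from *Hmx3* at 1.60 to *Sim1* at 4.54.

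The 8 genes were set beside other transcription factors known in the hypothalamus and beside lists of markers. Of 43 other hypothalamic transcription factors, 27 were found, with values from 0.08 to 11.38 and a median average log2 CPM of 2.76. Only 5 of the 27 were at or above the median of the table and 14 lay within the range of the 8 identity factors. The highest were *Peg3* (11.38), an imprinted zinc finger gene, and *Arnt2* (7.97), the partner of *Sim1*. *Nkx2-4*, a close relative of *Nkx2-1*, had an average log2 CPM of 1.10, and *Rax*, a factor of tanycytes and of the early hypothalamus, had 0.08.

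Of 18 genes listed as arcuate peptides, receptors and partners, 16 were found by symbol, with a median average log2 CPM of 4.41. The genes *Npy* and *Lepr* were not found. Whether the reads of this list came from arcuate neurons alone was not tested. Those highest in reads were *Pdyn* (prodynorphin, 6.61) and *Sst* (somatostatin, 6.35). *Pomc*, the precursor of the satiety peptide alpha-MSH, had an average log2 CPM of 4.67, and *Agrp*, the hunger peptide gene of the neighbouring arcuate neurons, had 1.42. *Ghrh*, the growth hormone-releasing hormone gene of the neurons linked to the Hmx pair, had 1.02, and *Kiss1* had 0.08. All 14 listed genes of neighbouring nuclei were found, and 7 of them were at or above the median of the table. The 2 with the highest average log2 CPM were *Pmch* (9.24), the melanin-concentrating hormone gene of the lateral hypothalamus, and *Oxt* (8.33).

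Genes listed here as markers of forebrain outside the hypothalamus were also read. Of 13 such transcription factors 10 were found, with a median average log2 CPM of 3.81, and 4 were at or above the median of the table, led by *Mef2c* (7.04) and *Bcl11b* (5.38). The cortical factor *Tbr1* had 3.34. All 7 genes listed as striatal markers were found, from 4.26 to 7.68, with a median of 5.37. The highest were *Penk* (proenkephalin, 7.68) and *Ppp1r1b* (the dopamine signaling protein DARPP-32, 7.07). Whether the reads of either list came from outside the hypothalamus or from hypothalamic cells that carry the same genes was not tested. The average does not say which libraries gave these reads, and their part in the levels of the identity factors was not tested.

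**Figure D2:**
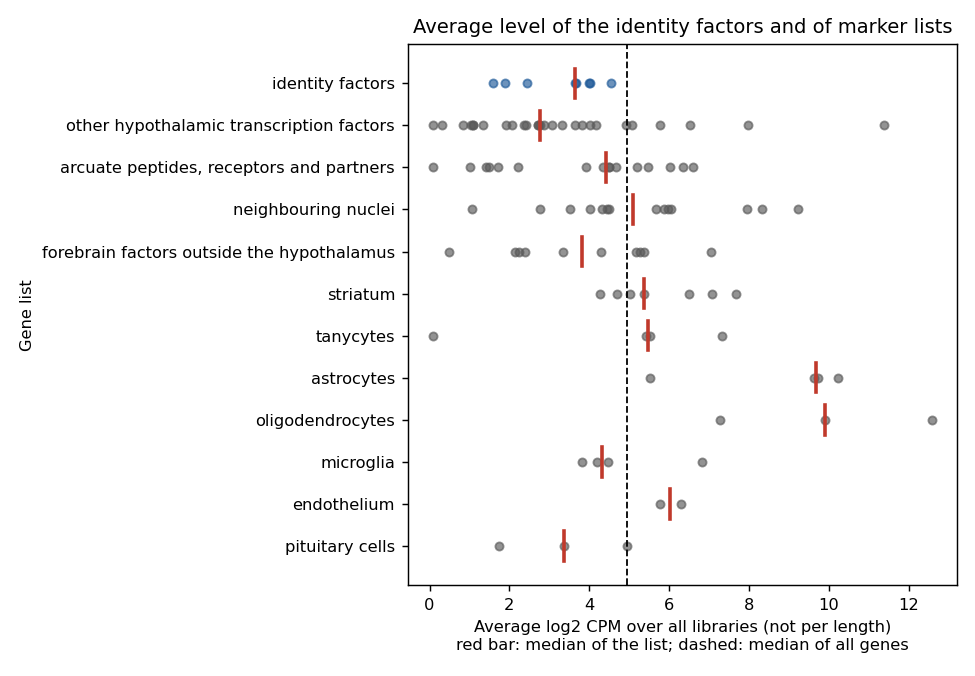
Each point is 1 gene, placed by its average log2 CPM over all libraries on the x axis, with the gene lists along the y axis; red bars are list medians and the dashed line is the median of all genes (4.94). The identity factors (median 3.65) all lie left of the dashed line, whereas the striatal list has a median of 5.37 and the astrocyte list one of 9.68.

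Promoter windows from RefSeq (build GRCr8, 250 bases before to 50 after the gene start, 300 in all) were at hand for 9 of the 10 genes, all but *Tbx3*. CpG content was described as the number of CpG pairs over the number expected from the C and G in the window. Of the 9 promoters, 7 (77.8%) had a ratio of 0.6 or more. Among all 33465 promoters that share was 34.4%. Among the 10623 promoters of genes in the table, however, it was 70.8%, which is close to that of the 9. Those 10623 promoters do not cover *Six6* and *Hmx2*, which are among the 9. The CpG ratio was 0.96 for *Nkx2-1*, 0.93 for *Sim1*, 0.87 for *Hmx3*, 0.82 for *Six6*, 0.78 for *Isl1*, 0.71 for *Six3* and 0.70 for *Otp*. The promoters of *Nr5a1* (0.32) and *Hmx2* (0.31) were CpG-poor, so that the adjacent paralogues *Hmx2* and *Hmx3* stood on opposite sides of 0.6. For 5 of the 9, *Nkx2-1*, *Sim1*, *Nr5a1*, *Six3* and *Six6*, the start used for the window lies inside the outer limits of the RefSeq gene, by 63 bases for *Nr5a1* and by 12552 bases for *Six6*.

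**Figure D3:**
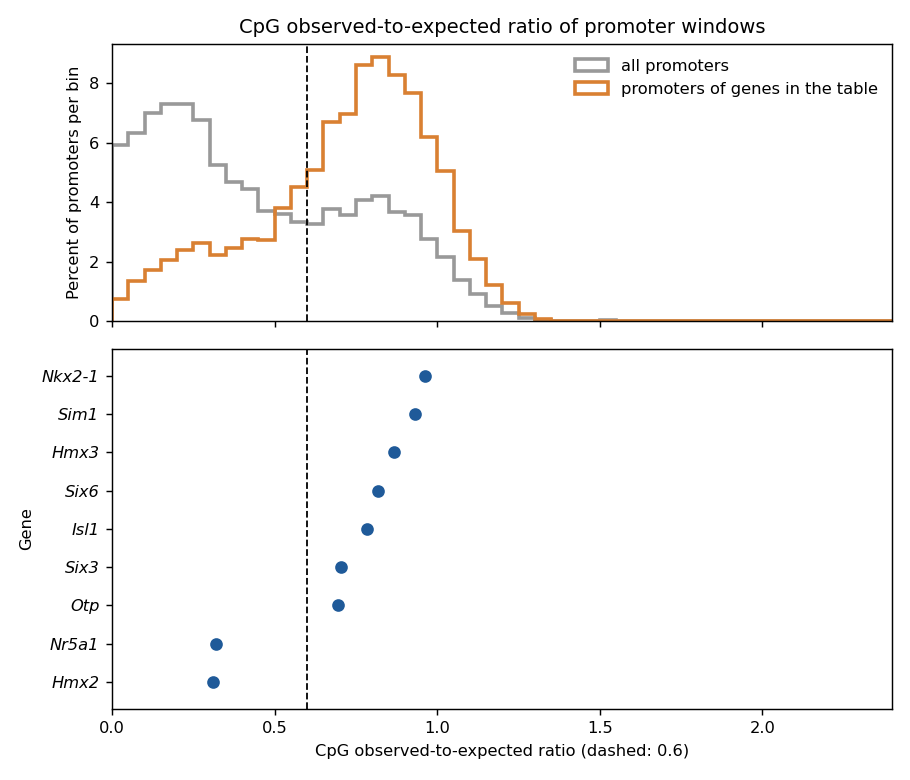
The upper panel gives the percent of promoter windows per bin of CpG observed-to-expected ratio, in grey for all promoters and in orange for those of genes in the table, and the lower panel places the 9 identity factors with a promoter window, 1 point each; the dashed line marks 0.6. *Nr5a1* and *Hmx2* lie left of the line, at 0.32 and 0.31, and the other 7 lie between 0.70 and 0.96.

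The windows of *Hmx3* and *Nr5a1* show both kinds of promoter. The *Hmx3* window had 76.7% G and C and 36 CpG pairs, and the capitals mark its 6 GC boxes (GGGCGG on either strand), the site of Sp1-type factors. The gene start used for this window falls on the letters ATG, and whether transcription starts there was not tested. The last of the 6 GC boxes, at base 293, lies after that start. The *Nr5a1* window had 57.7% G and C and 8 CpG pairs, and the capitals mark an E-box (CACGTG) and 3 CCAAT boxes (CCAAT on either strand), of which 2 overlap. Sequences are from RefSeq, build GRCr8, written 5′ to 3′ on the strand of the gene.
Hmx3, chr1:195743161-195743460, plus strand: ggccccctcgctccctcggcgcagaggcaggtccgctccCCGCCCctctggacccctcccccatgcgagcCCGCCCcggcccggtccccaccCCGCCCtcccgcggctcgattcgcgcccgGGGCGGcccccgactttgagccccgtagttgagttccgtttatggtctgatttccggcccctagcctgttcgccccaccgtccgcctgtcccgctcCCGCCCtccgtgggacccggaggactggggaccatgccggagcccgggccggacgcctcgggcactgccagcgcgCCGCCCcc
Nr5a1, chr3:42895997-42896296, minus strand: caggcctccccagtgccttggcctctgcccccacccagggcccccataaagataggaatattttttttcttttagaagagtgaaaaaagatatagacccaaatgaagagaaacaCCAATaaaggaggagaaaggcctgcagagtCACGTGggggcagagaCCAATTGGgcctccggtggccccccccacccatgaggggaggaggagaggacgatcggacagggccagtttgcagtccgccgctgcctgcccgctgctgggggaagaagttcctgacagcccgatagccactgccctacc

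The shares of promoters that hold each motif are given over all 33465 promoters and then over the 10623 promoters of genes in the table, which do not cover *Six6* and *Hmx2*. GC boxes were found in 3 of the 9 promoters (*Otp*, *Six6* and *Hmx3*), or 33.3%, against 33.1% and 61.7%. The E-box was found only in *Nr5a1* among the 9, against 6.42% and 9.15%. A CCAAT box was found in 6 of the 9 (*Isl1*, *Nkx2-1*, *Otp*, *Nr5a1*, *Six3* and *Six6*), or 66.7%, against 37.5% and 37.0%. A TATA box (TATAAA on either strand) was found only in *Hmx2* among the 9, against 14.2% and 6.72%. Letters of the classes of factor the genes encode were searched as well, also on either strand. TAATTA (a homeodomain motif) was in 0 of the 9 windows, against 5.36% and 2.20%. Other sites that homeodomain factors can bind were not searched, so this count covers TAATTA only. AGGTGT (T-box) was in 0, against 13.6% and 11.0%, and AAGGTCA (nuclear receptor) was in 0, against 4.61% and 2.93%. ACGTG (bHLH-PAS, which the E-box also holds) was in *Nkx2-1* and *Nr5a1*, against 19.3% and 24.6%. These are matches of letters in short windows and no measure of binding.

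The paralogues *Six3* and *Six6* shared a run of 12 bases in the same orientation, the longest shared run of the 36 pairs of promoters compared, for which the median longest run was 8 bases. The run is in capitals in both windows below. It starts at base 88 of the *Six3* window and at base 167 of the *Six6* window, counted from 1 at the 5′ end, and it contains a CCAAT box read on the other strand. Of all 33465 promoters 5 held it on either strand. Its core GATTGGC, picked after the windows were read, was in 5.83% of all promoters and in 8.91% of those of genes in the table.
Six3, chr6:14796207-14796506, minus strand: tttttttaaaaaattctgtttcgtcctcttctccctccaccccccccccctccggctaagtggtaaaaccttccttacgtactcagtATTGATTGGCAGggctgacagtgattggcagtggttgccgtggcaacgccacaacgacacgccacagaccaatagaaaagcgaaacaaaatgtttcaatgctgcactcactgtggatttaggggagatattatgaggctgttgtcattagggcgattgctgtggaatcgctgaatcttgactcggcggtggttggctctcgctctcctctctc
Six6, chr6:97370185-97370484, plus strand: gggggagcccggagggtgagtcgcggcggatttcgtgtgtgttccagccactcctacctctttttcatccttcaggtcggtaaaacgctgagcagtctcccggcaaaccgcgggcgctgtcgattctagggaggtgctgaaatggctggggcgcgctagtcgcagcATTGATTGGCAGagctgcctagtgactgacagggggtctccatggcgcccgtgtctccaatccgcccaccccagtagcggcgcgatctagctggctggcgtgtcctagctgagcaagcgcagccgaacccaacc

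The 8 genes of the table are all protein-coding and lie on 6 chromosomes of Rnor_6.0, the build of the authors' table. *Nkx2-1* lies on chromosome 6 from 77418096 to 77421286 and *Six3* on the same chromosome from 8886591 to 8889925. *Isl1* and *Otp* share chromosome 2, from 48487736 to 48501436 and from 24546536 to 24554683. *Sim1* lies on chromosome 20 from 55594676 to 55673995 and *Tbx3* on chromosome 12 from 42480560 to 42492526. *Nr5a1* lies on chromosome 3 from 22999616 to 23020441 and *Hmx3* on chromosome 1 from 203509731 to 203511695.

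Most of these genes are compact. Their spans ran from 1.965 kb (*Hmx3*) to 79.32 kb (*Sim1*), and 7 of the 8 were shorter than the median span of the table, 21.5 kb. Several stood far from the nearest other gene of the table. The gap was 586 kb for *Isl1* (to *Parp8*), 487 kb for *Tbx3* (to *Rbm19*) and 157 kb for *Six3* (to *Camkmt*), so that 3 of the 8 had a gap over 100 kb, against 11.9% of all genes in the table. The median gap was 39.7 kb for the 8 and 8.25 kb for all genes in the table. Among the genes of the table, the nearest to *Nr5a1* was *Nr6a1*, another nuclear receptor gene, at 13.3 kb and with an average log2 CPM of 1.15. For *Hmx3* the nearest gene of the table was *Bub3*, a spindle checkpoint gene, at 12.7 kb and with an average log2 CPM of 5.24. The adjacent *Hmx2* was not covered by this search.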

How the data were processed

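RNA-seq of the ARC was carried out by the authors on 10 dams, 5 per diet. Per the paper and the labels, poly-A libraries were sequenced as pairs, trimmed with Trim Galore 0.5.0, aligned with STAR 2.6.0c to Rnor_6.0 with Ensembl gene models and counted with HTSeq 0.6.1p2; genes with too few reads were dropped. The deposited column used here is an average on a log2 scale of CPM over all libraries. Its tool is not given in the sources used here. Raised as powers of 2, its values summed to within 0.22% of the total that CPM should give, so the base is 2. The deposited table also holds the authors' fold change, F statistic, p-value and FDR (4 columns), which were not used, and 10 columns of per-library values that match no label and were not used. The planned limma and exact tests between diets therefore could not be made.

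Percentiles are the percent of table genes with a lower average log2 CPM. Marker lists, motifs and members were chosen with earlier results of these data known. All members are named, as are the 2 highest of each list; other genes were named after their values were seen. Of the planned markers, 2 are not reported here and stand in no list. Promoter windows came from RefSeq GRCr8, matched by symbol, and the table's coordinates from Rnor_6.0. Motif and percentile functions were tested on simulated data. Scripts ran in Python 3.11.15 with pandas 2.3.3 and numpy 2.4.6; figures were drawn with matplotlib 3.10.9.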

Additional observations from a re-analysis of the deposited data

How the results depend on the processing

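Only the set of genes against which a percentile was taken could be varied. The median percentile of the 8 identity factors was 25.0 among all genes and 23.2 among the 12383 protein-coding genes, where the percentile of each of the 8 fell by 1.33 to 1.82 points. Among the genes whose symbol occurs once, an alternative chosen after seeing the data, it was 24.9 and each of the 8 percentiles shifted by at most 0.079. Restricting the genes to those at or above the median gave no value, since none of the 8 reaches it. Levels per kilobase of transcript were not run, because the reference gives genomic spans and not transcript lengths. The alternatives planned for the comparison of the diets (pseudocount, filter, centring, trend and leaving out each replicate) were not run, as no library could be matched to a dam. No paired analysis was possible because the columns of values carry no replicate number of the labels. Without values per library, neither a spread nor a depth limit can be given for the averages.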

Other observations

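Markers of cell types other than neurons were also read. The 4 astrocyte genes had a median average log2 CPM of 9.68, led by *Aqp4* (10.22), the water channel of astrocyte end-feet, and *Slc1a3* (9.73), a glutamate transporter. The 3 oligodendrocyte genes had a median of 9.90, led by the myelin genes *Mbp* (12.59) and *Mobp* (9.90). The 4 microglial genes had a median of 4.32, with 3 of them below the median of all genes, led by *Csf1r* (6.82) and *Cx3cr1* (4.46), and the 2 endothelial genes found of 3, *Flt1* and *Cldn5*, had 6.28 and 5.77. Of 6 tanycyte genes 4 were found, with *Vim* at 7.32, *Crym* at 5.53, *Col25a1* at 5.42 and *Rax* at 0.08. *Dio2* and *Nes* were not found by symbol. Whether the reads of these lists came only from the cell types named was not tested.

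Of 8 genes of anterior pituitary cells 3 were found: *Cga*, the common alpha subunit of the glycoprotein hormones, at an average log2 CPM of 4.95, *Tshb*, the thyrotropin beta subunit, at 3.37, and *Tbx19*, a T-box factor of corticotrophs, at 1.74. The other 5, *Prl*, *Gh1*, *Pitx1*, *Lhb* and *Pou1f1*, were not found by symbol. Which libraries gave the reads of the 3 genes found cannot be told from an average over all libraries.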
